A study of Oryctolagus cuniculus with 6 samples.

Results

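The genes described here are the heat shock proteins, their DNAJ and BAG cochaperones and the heat shock factors of the rabbit retina. They were chosen by symbol (HSPA, HSPB, HSP90, HSPD1, HSPE1, HSPH1, HSF1, HSF2, DNAJA, DNAJB, DNAJC and BAG1 to BAG6) by a rule that contains no measured value, and 73 of the 28788 genes in the table carry such a symbol. Normal rabbit retina (3 samples) was compared with rabbit retina with proliferative vitreoretinopathy (PVR), a scarring of the retina after injury (3 samples). For the PVR group, adult rabbits received a puncture through the sclera, a withdrawal of some vitreous and then platelet-rich plasma inside the eye. The sources used here name neither the strain, nor the interval before the retinas were taken, nor a sham operation for the normal group, so the puncture, the loss of vitreous and the plasma cannot be told apart. Polyadenylated RNA of retina was sequenced, with 31904593 to 43035080 counted reads per sample. Levels are given as FPKM, reads corrected for gene length and for the depth of the sample, which can be compared between genes. Fold changes are log2 values, PVR minus normal, from edgeR's quasi-likelihood test.

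Heat shock proteins are chaperones, which bind unfolded proteins and help them to fold or to be degraded. HSP70 proteins bind and release their clients in a cycle driven by ATP, J-domain (DNAJ) proteins bring clients and start ATP hydrolysis, and HSP110 and BAG proteins open the cycle again by exchanging the nucleotide. HSP90 takes over part of the clients, small heat shock proteins hold unfolded proteins without ATP, and HSF1 switches on the cytosolic chaperone genes under stress. In the retina these proteins serve, among others, the folding of rhodopsin and phosphodiesterase in photoreceptors and the release of transmitter at synapses.

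Normal replicate 2 stood apart from the other samples in lens genes, before any member is considered. The summed FPKM of 9 lens markers was 35107 in that sample, 16.2 and 13.2 in the other normal samples and 283 to 331 in the PVR samples. Several results that this sample moved are therefore given with and without it, and others, such as those of DNAJA1 and DNAJC12, with it only. Marker lists of other cells also differed between the groups. For all 7 myeloid markers in the table the lowest PVR value was above the highest normal value (summed FPKM 8.92 to 16.7 in normal and 22.3 to 32.5 in PVR), although none passed an adjusted p of 0.05 with edgeR and 3 did with DESeq2 (ITGAM, PTPRC and CD68). Oligodendrocyte markers summed to 80.8 to 438 in normal and 50.0 to 56.8 in PVR, with 3 of 8 tested lower past that threshold with edgeR. Markers of the pigment epithelium summed to 92.6 to 204 in normal and 48.8 to 57.7 in PVR, with LRAT and TTR of 6 tested lower past it with edgeR. Most of this sum came from TTR and RPE65, both lower without overlap. BEST1 of the same list was higher without overlap, at 0.413 FPKM in normal and 0.626 in PVR (adjusted p = 0.215 from edgeR). TYR and MITF overlapped. Photoreceptor markers summed to 15410 to 18749 in normal and 11834 to 15887 in PVR, with none of 8 past the threshold with edgeR and 1 lower with DESeq2. Rhodopsin and the other photoreceptor genes thus mark these samples as retina, in bulk tissue where fewer cells of a type and less RNA per cell cannot be told apart. All samples of a group were treated as replicates, and since no source says that they are separate animals, p-values measure the spread between these samples only.

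Among the 69 members that passed the filter on low counts, 1 rose in PVR, none fell and 68 did not pass the test (edgeR, adjusted p under 0.05). The member that rose was HSPB6. This is 1.45% of the members tested, beside a background of 1.7% of all 18697 genes tested. In the upward direction alone the background was 1.09%, and in the downward direction it was 0.615%. With the study's fold threshold of 1 on the log2 scale added, no member remained, beside 1.01% of all genes. At an unadjusted p under 0.05, 9 members were found (3 higher and 6 lower), 13.0% of the members against 21.2% of all genes (11.3% higher and 9.94% lower). DESeq2 called 2 members higher and 1 lower, beside 5.43% and 3.33% of all genes and 8.75% in either direction. Limma-voom called 1 higher and none lower, beside 0.754% and 0.396% of all genes and 1.15% in either direction.

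The log2 fold changes of the members were mostly small. Their median was -0.07, beside -0.01 over all genes tested, and 42 of 69 members (60.9%) had a value below 0, against 51.1% of all genes. A size under 0.5 was found for 65 of the 69 members (94.2%), against 73.4% of all genes. The 95% interval of the log2 fold change lay wholly between -1 and 1 for 61 members (88.4%), against 61.4% of all genes. For each of these 61 genes taken singly, changes beyond the fold threshold used in the study lay outside the interval, in either direction. The intervals were not set to hold jointly, and like the p-values they measure the spread between these samples only. The genes with wider limits were low or uneven, namely HSPB1, HSPB2, HSPB3, HSPB7, DNAJB7 and DNAJB13, together with BAG3, whose upper limit lay just past 1, and HSPB6.

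**Figure D1:**
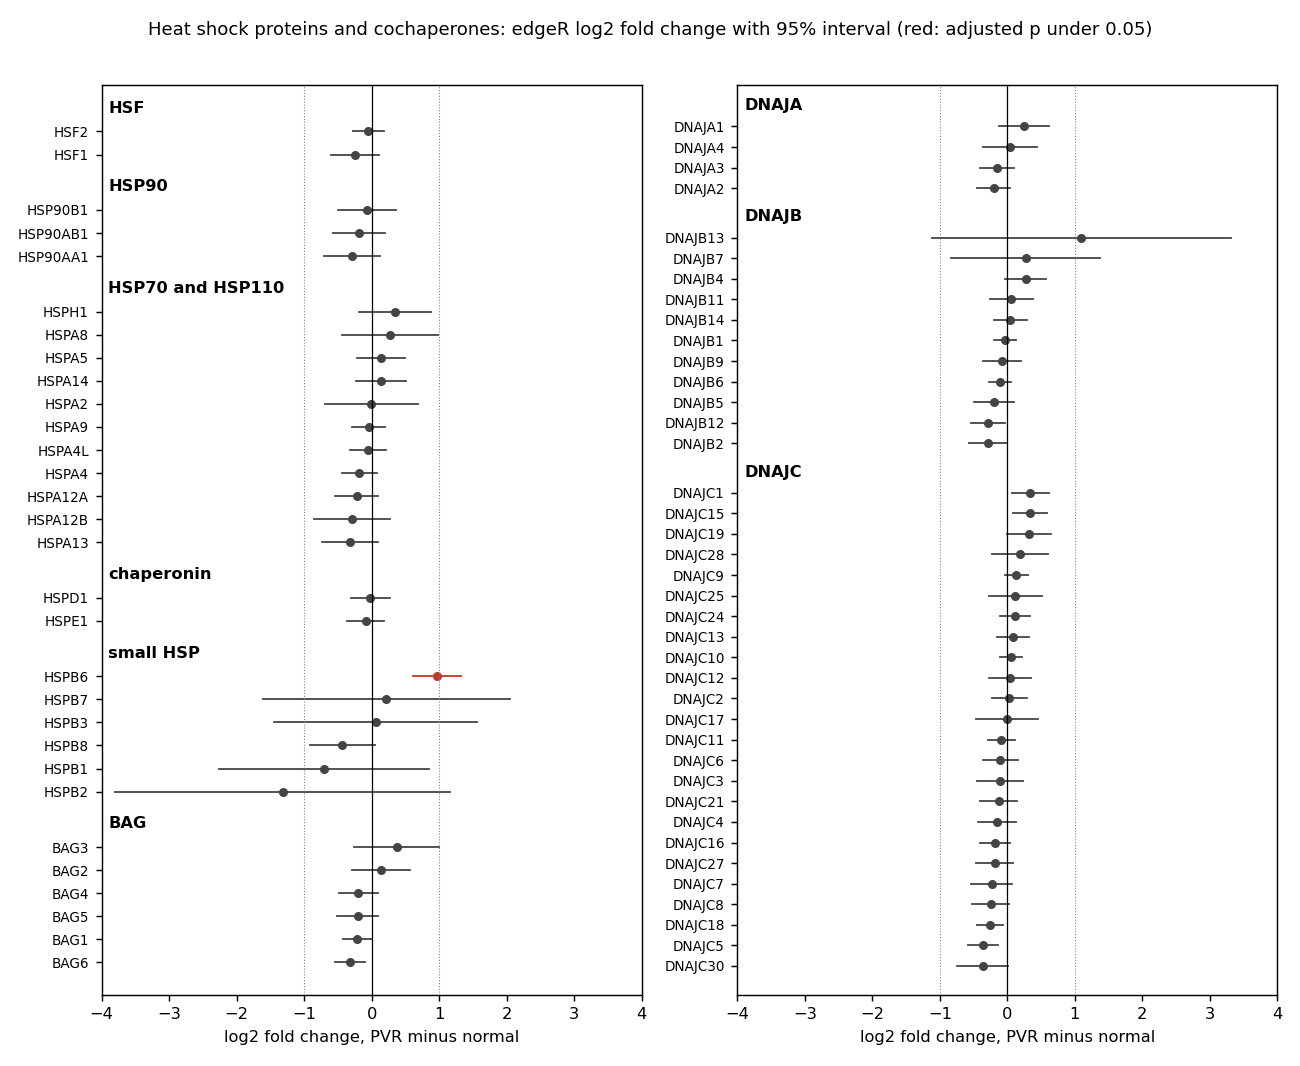
Log2 fold change (PVR minus normal, edgeR) of each of the 69 members tested, grouped by class, with bars for the 95% interval and dotted lines at -1 and 1. HSPB6 at 0.97 is the one member past an adjusted p of 0.05, while most of the other intervals cross 0 and stay within the dotted lines.

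Small heat shock proteins held the one change that passed the test. HSPB6, also called Hsp20 and best known from muscle, had an FPKM of 15.4, 12.3 and 11.7 in normal retina and 28.6, 29.6 and 22.8 in PVR retina. The groups did not overlap, and the lowest PVR sample, replicate 3, was well above the highest normal sample, replicate 1. The mean FPKM was 13.1 ± 1.96 (SD, n = 3) in normal and 27.0 ± 3.65 (SD, n = 3) in PVR, a ratio of 2.06. Its log2 fold change was 0.97 (standard error 0.15, 95% interval 0.61 to 1.32, adjusted p = 0.0342 from edgeR with Benjamini-Hochberg adjustment), just short of the study's fold threshold of 1. HSPB6 took position 155 when all genes were ranked by p. The direction was the same in all 15 alternative settings, with log2 fold changes from 0.89 to 1.10. The call was less stable, since the adjusted p (edgeR) was 0.0537 without normal replicate 1, 0.113 without normal replicate 2, 0.22 without PVR replicate 1 and 0.0905 without PVR replicate 2. Genes listed as markers of cells that line or surround vessels moved in both directions beside it. Over all 10 of them the summed FPKM was 99.9 to 102 in normal and 112 to 120 in PVR. Most of this sum came from KDR and FLT1, with means of 63.5 and 26.1 FPKM in normal and 75.0 and 33.0 in PVR. Among the other listed genes the highest normal mean was 2.71 FPKM, that of CLDN5. The sum thus follows KDR and FLT1 and is not read as a measure of vessel cells. In FPKM, KDR and FLT1 were higher and VWF, CDH5, CLDN5 and RGS5 lower without overlap, and the others overlapped. After TMM scaling, which the test uses, KDR overlapped as well (log2 fold change 0.17, adjusted p = 0.435 from edgeR), and the other 5 stayed apart. VWF, CDH5 and RGS5 were the 3 lower past the threshold with edgeR, and CDH5 was at 0 in PVR replicates 1 and 2. ACTA2, an actin of smooth muscle and myofibroblasts, had 1.58 ± 0.508 and 5.13 ± 3.30 FPKM (SD, n = 3) in groups that overlapped (adjusted p = 0.166 from edgeR and 0.0158 from DESeq2). Glial markers were divided as well. CLU rose by a log2 fold change of 1.07 and GLUL and RLBP1 fell, by -1.11 and -0.89. KCNJ10 was also lower without overlap, at -0.36 (adjusted p = 0.108 from edgeR), and VIM, SLC1A3 and AQP4 overlapped. The sum over all 8 glial markers was 1385 to 1714 FPKM in normal and 1846 to 2003 in PVR. CLU alone had means of 425 and 939 FPKM, so it weighed heavily in the higher sum. GFAP, the filament protein of reactive glia, had 55.5 ± 33.3 FPKM in normal and 153 ± 13.6 in PVR (SD, n = 3), with groups apart, but its difference of 1.39 on the log2 scale did not pass the test (adjusted p = 0.143 from edgeR). The part of these cells in the HSPB6 result was not tested.

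HSPB8, a small heat shock protein that acts with BAG3 in the removal of misfolded proteins by autophagy, did not pass the test. Its FPKM was 12.8, 17.7 and 13.5 in normal and 11.1, 9.20 and 13.9 in PVR. The groups overlapped, as PVR replicate 3 was above normal replicates 1 and 3. The log2 fold change was -0.43 (95% interval -0.91 to 0.05, adjusted p = 0.274 from edgeR), and -0.25 without normal replicate 2. HSPB6 and HSPB8 made up nearly all of the summed FPKM of the HSPB genes, and their balance could be read within each sample, free of any scaling between samples. HSPB6 divided by HSPB8 was 1.20, 0.692 and 0.867 in normal retina, whereas PVR retina had 2.57, 3.21 and 1.64. The ratio was chosen after these values were seen and is given without a test.

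Few reads were counted for the other HSPB genes, under an annotation whose release is not given. HSPB1, or Hsp27, a widely studied stress-induced member, had 16, 45 and 10 counts in normal and 8, 12 and 22 in PVR. Normal replicate 2 was the highest of all. HSPB1 had a log2 fold change of -0.70 with that sample and of 0.15 without it, neither past the threshold. HSPB2 had 9, 75 and 3 counts in normal and 10, 13 and 9 in PVR, so the same sample was far above all others. The log2 fold change of HSPB2 turned from -1.32 to 0.94 without it. CRYAB, the lens and stress chaperone that belongs to the same family under a symbol the rule does not cover, showed this most plainly. Its FPKM was 72.3, 5795 and 166 in normal and 174, 171 and 176 in PVR, and its log2 fold change was -3.64 with normal replicate 2 and 0.50 without it (adjusted p = 0.22 and 0.458 from edgeR). The part of lens RNA in these values was not tested. HSPB3 and HSPB7 stood at an FPKM under 1 in every sample. HSPB9 had at most 2 counts in a sample and was not tested.

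**Figure D2:**
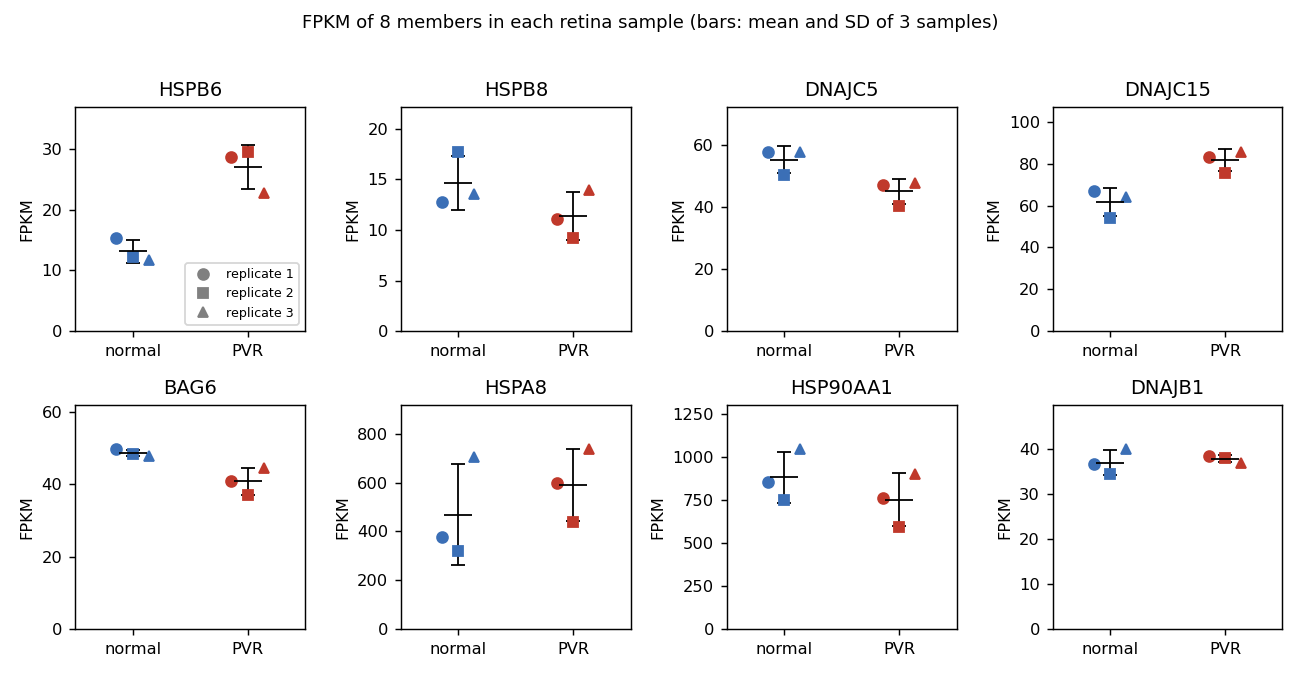
FPKM of HSPB6, HSPB8, DNAJC5, DNAJC15, BAG6, HSPA8, HSP90AA1 and DNAJB1 in each sample, with 3 normal (blue) and 3 PVR (red) points per gene, symbols for the replicate number and bars for the mean and SD. The groups are apart for HSPB6, DNAJC5, DNAJC15 and BAG6 and overlap for the other genes.

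The HSP70 class was led by HSPA8, the constitutive HSP70 of the cytosol. HSPA8 had an FPKM of 378, 321 and 704 in normal and 596, 440 and 736 in PVR. Replicate 3 was the highest sample of both groups, and normal replicate 3 was above PVR replicates 1 and 2. The highest normal sample was 2.20 times the lowest, whereas the ratio of the group means was 1.26. The log2 fold change of 0.28 had a 95% interval of -0.44 to 0.99 (adjusted p = 0.623 from edgeR). It ranged from 0.07 without PVR replicate 3 to 0.68 without normal replicate 3, and it was 0.08 without normal replicate 2, none past the threshold. HSPH1, an HSP110 that exchanges the nucleotide of HSP70 and is induced by heat, had 30.6, 24.2 and 48.0 in normal and 46.6, 38.9 and 50.7 FPKM in PVR. Normal replicate 3 lay within the PVR range, and the log2 fold change of 0.34 (95% interval -0.19 to 0.88) did not pass the test (adjusted p = 0.416 from edgeR). HSPA4L, another HSP110, had 94.8 ± 10.9 FPKM in normal and 95.8 ± 7.61 in PVR (SD, n = 3). HSPA2, a member best known from the testis, was low at 3.52 ± 1.60 and 3.66 ± 0.322 FPKM (SD, n = 3). The lowest log2 fold change of the class was that of HSPA13, an HSP70-like protein of the endoplasmic reticulum, at -0.32 (95% interval -0.74 to 0.10). In total 11 of the 12 HSP70 and HSP110 genes were tested, with none past the threshold or at an unadjusted p under 0.05. HSPA6, a strictly stress-inducible HSP70 in human cells, was the gene left out, with 2, 3 and 1 counts in normal and 0, 11 and 1 in PVR. HSPA1A and HSPA1B, the main inducible HSP70 genes, fall under the rule. No gene in the table carries either symbol, so they could not be analysed here. HSPA8, HSP90AA1, HSPD1 and HSPE1 have processed copies in many mammalian genomes, so their counts depend on how shared reads were assigned.

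Among the HSP90 genes was the most abundant member. HSP90AA1, the stress-responsive HSP90 of the cytosol, had an FPKM of 853, 749 and 1044 in normal and 765, 591 and 902 in PVR. PVR replicate 2 was the lowest and normal replicate 3 the highest sample, with overlap between the groups. The log2 fold change was -0.29 (95% interval -0.71 to 0.12, adjusted p = 0.375 from edgeR). HSP90AB1, its constitutive partner, had 268 ± 51.7 FPKM in normal and 247 ± 37.3 in PVR, and HSP90B1, the HSP90 of the endoplasmic reticulum, had 200 ± 55.5 and 199 ± 20.4 (SD, n = 3). HSP90AA1 and HSPA8 together took 31.7% to 40.4% of all reads counted in members, and the members as a whole took 0.867% to 1.18% of all counted reads.

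Neither heat shock factor passed the test. HSF1, the factor that is activated by heat and unfolded proteins, had 8.76, 11.3 and 11.4 FPKM in normal and 10.5, 9.25 and 8.18 in PVR, with overlap. Its log2 fold change was -0.25 (95% interval -0.60 to 0.11, adjusted p = 0.389 from edgeR). The activity of HSF1 is set on the protein and is not read from this level. HSF2 had 22.5 ± 2.34 FPKM in normal and 22.9 ± 1.36 in PVR (SD, n = 3). DNAJB1, or Hsp40, a J-domain protein that HSF1 induces, had 36.6, 34.6 and 40.0 in normal and 38.5, 38.1 and 37.0 FPKM in PVR. All 3 PVR values lay within the normal range. Its interval was one of the narrowest of the members, with a log2 fold change of -0.04 and limits of -0.20 and 0.12, so a change of the group means beyond a factor of 0.871 or 1.09 lay outside it.

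Several chaperones were highest in replicate 3 of both groups. This was so for 19 of the 69 members (27.5%) and for 14.9% of all genes tested, and among these members were HSP90AA1, HSP90AB1, HSP90B1, HSPA8, HSPA5, HSPA4, HSPH1, HSPD1 and BAG3. The pattern was noticed in the data and is given without a test. The numbers mark no shared animal or day in the labels. Over all genes tested, deviations of same-numbered samples from their group means were close to uncorrelated, which cannot exclude a pairing. For 63 of the 69 members (91.3%), the ratio of the highest to the lowest sample within a group was larger than the ratio of the group means. The share was 84.4% of the 18424 tested genes above 0 in every sample. The group with the larger spread was used, so genes with a small change meet this easily.

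**Figure D3:**
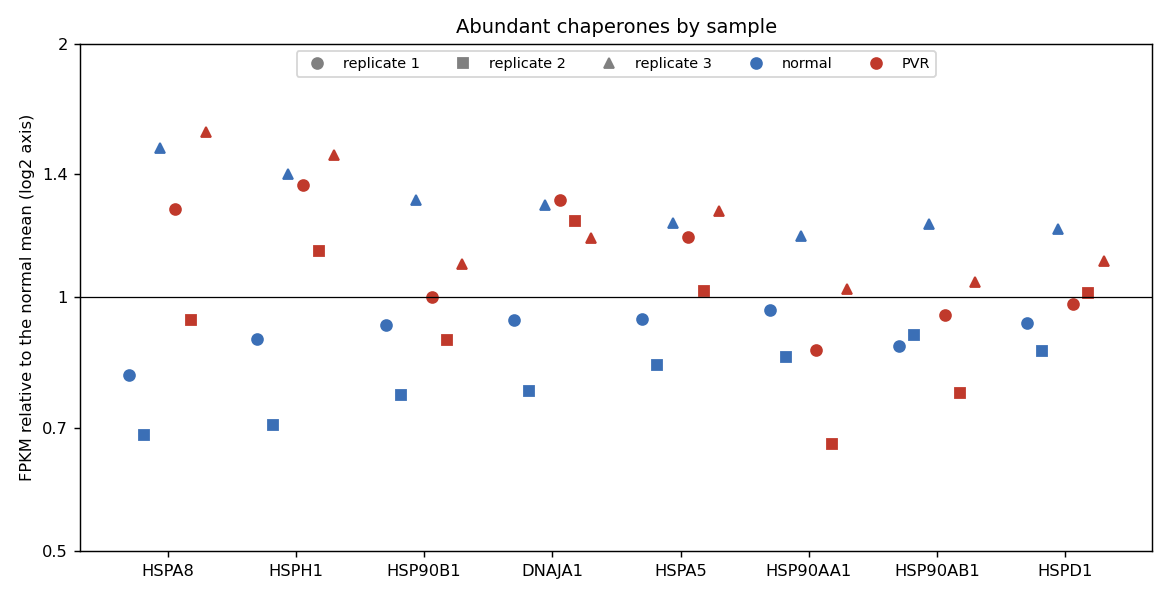
FPKM of 8 chaperones in each sample divided by the mean of the 3 normal samples (log2 axis), with normal in blue, PVR in red and symbols for the replicate number. The genes were chosen with the pattern of replicate 3 known. HSPA4L, DNAJC15, DNAJC5, BAG6 and DNAJC10 are more abundant than HSPH1 but are not drawn, and their highest normal sample was replicate 1. HSPA4, DNAJA2 and DNAJC6 are also more abundant than HSPH1 and not drawn, and their highest normal sample was replicate 3. Replicate 3 (triangles) is the highest normal sample for all 8 genes and the highest PVR sample for all but DNAJA1, and HSPA8 spreads more within the normal group than between the group means.

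In the endoplasmic reticulum, 12 of 13 members were tested and none passed the threshold, with a median log2 fold change of -0.01. HSPA5, or BiP, the HSP70 of this compartment and the usual readout of its unfolded protein response, had an FPKM of 131, 115 and 170 in normal and 163, 141 and 176 in PVR. Normal replicate 3 was above PVR replicates 1 and 2, and the log2 fold change of 0.14 (95% interval -0.21 to 0.50) did not pass the test (adjusted p = 0.615 from edgeR). Cochaperones that the same response induces did not pass the test either. DNAJB9 had 15.3 ± 1.64 FPKM in normal and 15.3 ± 0.880 in PVR (SD, n = 3), and DNAJC3 had 17.3 ± 1.68 and 16.9 ± 3.16 (SD, n = 3). The largest increase of the compartment was that of DNAJC1, a membrane J-domain protein that binds ribosomes, with 18.3, 14.7 and 14.8 FPKM in normal and 21.5, 23.2 and 18.8 in PVR. These groups were apart by a small margin in FPKM and overlapped after TMM scaling. For DNAJC1 the log2 fold change of 0.34 (95% interval 0.07 to 0.61) had an adjusted p of 0.166 from edgeR, and the p before adjustment was 0.0214. DNAJC22 had 10 counts in one normal sample, 4 in one PVR sample and none elsewhere, and was not tested.

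In mitochondria, all 9 members were tested and none passed the threshold with edgeR. HSPD1 and HSPE1, which form the folding chamber of the matrix, had 47.5 ± 8.58 and 20.6 ± 1.43 FPKM in normal and 49.1 ± 3.04 and 20.3 ± 2.96 in PVR (SD, n = 3). HSPA9, the HSP70 of the matrix, had 36.3 ± 5.64 and 36.9 ± 1.61 (SD, n = 3). DNAJC15, a J-domain protein of the inner membrane known to restrain complex I of the respiratory chain, was the highest J-domain gene of the DNAJC class. Its FPKM was 67.1, 54.1 and 64.1 in normal and 83.4, 75.7 and 85.8 in PVR, without overlap. The fitted log2 fold change of DNAJC15 was 0.33 (standard error 0.11, 95% interval 0.08 to 0.58), with an adjusted p of 0.146 from edgeR and 0.0476 from DESeq2. DNAJC19, a J-domain protein of the protein import motor, had 13.2, 11.1 and 9.31 in normal and 14.2, 14.5 and 15.3 FPKM in PVR. These groups were also apart, with a log2 fold change of 0.32 (95% interval -0.01 to 0.64, adjusted p = 0.243 from edgeR). In the other direction stood DNAJC30, with 9.65 ± 0.696 FPKM in normal and 7.87 ± 0.769 in PVR (SD, n = 3), also apart, and a log2 fold change of -0.37 (95% interval -0.74 to 0.01, adjusted p = 0.246 from edgeR).

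**Figure D4:**
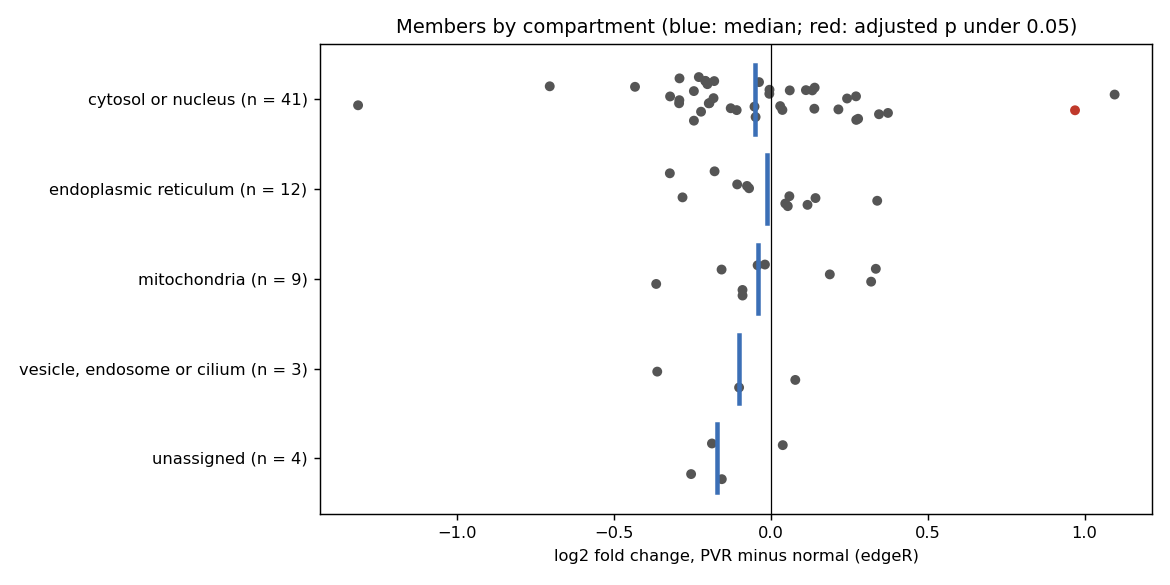
Log2 fold change (PVR minus normal, edgeR) of each member tested, in rows by the compartment in which its protein is known to act, with a blue line at the median of each row. The medians lie between -0.17 and -0.01, and HSPB6 in the cytosolic row is the one red point.

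Of the 3 J-domain proteins of vesicles and endosomes, none passed the test with edgeR. DNAJC5, the cysteine string protein that keeps the release machinery of synaptic vesicles folded, had an FPKM of 57.8, 50.2 and 57.6 in normal and 47.1, 40.3 and 47.6 in PVR. All PVR samples were below all normal samples. The log2 fold change was -0.36 (standard error 0.10, 95% interval -0.59 to -0.14), with an adjusted p of 0.105 from edgeR and 0.0398 from DESeq2. Over all 15 alternatives its value stayed between -0.42 and -0.28, and DESeq2 was the one setting that called it. DNAJC6, or auxilin, which strips clathrin from vesicles and is likewise abundant in neurons, had 48.0, 43.4 and 54.8 FPKM in normal and 46.4, 44.3 and 52.0 in PVR. Its groups overlapped, with a log2 fold change of -0.10 (95% interval -0.36 to 0.16). DNAJC13, a J-domain protein of endosomes, had 22.0 ± 2.76 and 24.3 ± 0.696 FPKM (SD, n = 3).

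Of the J-domain proteins as a whole, all 4 DNAJA genes, 11 of 12 DNAJB genes and 24 of 25 DNAJC genes were tested, and none passed the threshold with edgeR. The medians of their log2 fold changes were -0.06, -0.04 and -0.05. DNAJA1, which carries clients to HSPA8, had 50.4, 41.5 and 69.0 FPKM in normal and 70.1, 66.1 and 63.1 in PVR, with normal replicate 3 inside the PVR range (log2 fold change 0.24, adjusted p = 0.409 from edgeR). DNAJA2 had the lowest log2 fold change of the DNAJA class at -0.20. DNAJB2, a neuronal J-domain protein that binds ubiquitin, had 29.8, 34.1 and 38.7 in normal and 30.6, 26.3 and 31.0 FPKM in PVR. The groups overlapped, and the log2 fold change was -0.29 (95% interval -0.56 to -0.02, adjusted p = 0.211 from edgeR). DNAJB13, a protein of motile cilia and sperm tails, had the highest log2 fold change of any member at 1.10, but it rested on 2 to 25 counts per sample and an interval from -1.12 to 3.31. DNAJB8 had no count in any sample, which allows up to 3 counts per library and covers counting error only. Among members with no assigned compartment, DNAJC18 had 11.7, 11.3 and 11.1 in normal and 10.1, 9.63 and 10.3 FPKM in PVR, apart by a small margin (log2 fold change -0.25, adjusted p = 0.145 from edgeR), and DNAJC12 had the highest FPKM, with 27.1 ± 4.40 in normal and 29.1 ± 2.56 in PVR (SD, n = 3).

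BAG proteins bind HSP70 and set the fate of its clients. All 6 were tested and none passed the threshold. BAG6, which guides membrane proteins and defective proteins to insertion or to the proteasome, had an FPKM of 49.7, 48.6 and 47.9 in normal and 40.9, 37.2 and 44.6 in PVR. The groups were apart, and the normal samples were close together. Its log2 fold change was -0.32 (standard error 0.10, 95% interval -0.54 to -0.10, adjusted p = 0.126 from edgeR and 0.058 from DESeq2), and no alternative called it. BAG1 had 32.1 ± 2.43 FPKM in normal and 29.2 ± 0.907 in PVR (SD, n = 3). BAG3, a target of HSF1 and the partner of HSPB8, had 2.94, 4.09 and 5.15 in normal and 5.57, 4.03 and 6.87 FPKM in PVR. PVR replicate 2 lay below normal replicates 2 and 3, and the log2 fold change of 0.37 did not pass the test (adjusted p = 0.449 from edgeR).

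Groups without overlap in FPKM were found for 11 members (7 higher and 4 lower), 15.9% of those tested against 26.7% of all genes (17.0% higher and 9.69% lower). After TMM scaling the number was also 11, but with 3 higher and 8 lower, against 28.0% of all genes (13.4% higher and 14.5% lower), so the balance of directions depended on the scaling. HSPB6, DNAJC15 and DNAJC19 were higher and DNAJC5, DNAJC18, DNAJC30 and BAG6 lower on both scales.

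The wider chaperone network gave no call with edgeR. Of 76 listed partner genes, 72 were in the table and all of these were tested, 12 of them (16.7%) at an unadjusted p under 0.05, all lower, against 21.2% of all genes in either direction and 9.94% lower. One of the 12 was CRYAB, whose value turns above 0 without normal replicate 2. The median log2 fold change of the partners was -0.15 with and without that sample, and 57 of 72 (79.2%) lay below 0, against 51.1% of all genes. By group, the medians were -0.19 for 16 HSP90 cochaperones, -0.22 for 14 subunits of the cytosolic chaperonin and prefoldin, -0.03 for 20 folding and stress-response genes of the endoplasmic reticulum, -0.18 for 9 genes of mitochondrial protein quality control and -0.28 for 13 other partners, among them CRYAB and HSF4. Without normal replicate 2 the last of these medians was -0.13. DESeq2 called 1 partner, TIMM44, a subunit of the mitochondrial import motor, and limma-voom called none. TIMM44 had 7.43, 8.31 and 6.89 FPKM in normal and 4.90, 4.48 and 5.51 in PVR. The log2 fold change of TIMM44 was -0.68 (standard error 0.16), with an adjusted p of 0.0844 from edgeR and 0.00582 from DESeq2. It is named because it was this single call, after its values were seen.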

How the data were processed

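RNA of 3 normal and 3 PVR retina samples was sequenced. Per the labels, the authors used fastp, HISAT2 and HTSeq, and the paper's methods name the rabbit genome OryCun2.0. The authors deposited raw counts per gene, without normalization, and FPKM values. Dividing the counts by the FPKM values and the totals gave one length per gene (largest relative difference 4.24e-09), so both units rest on the same reads. Strand setting and annotation release are not given in the sources used here, and the labels and the paper name different library kits. Samples of a group differed by more than counting noise (chi-square per degree of freedom 20.7 to 195).

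Counts were tested in R 4.3.3 with edgeR 4.0.16 (default filter on low counts, TMM factors, quasi-likelihood test, Benjamini-Hochberg adjustment over 18697 genes). Of the 73 members, 69 were tested. The threshold was an adjusted p of 0.05. The study names DESeq2 and also a log2 fold change of 1. Standard errors are the size of the log2 fold change divided by the square root of F, and intervals cover 95%. Alternatives were DESeq2 1.42.0, limma 3.58.1 (voom, and log2 of FPKM + 1 or FPKM + 0.1), other factors and filters, a block for the replicate number and single samples left out in turn. The scripts were tested on simulated counts. Figures were drawn with matplotlib 3.10.9.

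Members, partner and marker lists and compartments (from textbook knowledge) were chosen with earlier results of these data known. Named genes are members past the threshold, the highest FPKM and the largest increase and decrease of each class and compartment, and canonical members set by name. Others are marked as chosen after their values were seen. Promoter motifs and protein ends that had been planned were not analysed here, and no sequence or position is given.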

Additional observations from a re-analysis of the deposited data

How the results depend on the processing

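The number of members past an adjusted p of 0.05 in the higher direction was 1 with edgeR and 2 with DESeq2, which added DNAJC15, and it was 0 with the replicate block and 0 to 1 with single samples left out. In the lower direction it was 0 with edgeR and 1 with DESeq2, which called DNAJC5. The partner genes gave 0 lower calls with edgeR and 1 with DESeq2. Limma-voom, the 2 FPKM scales, the other factors and the other filters left all 4 counts as they were. The replicate block moved the adjusted p of HSPB6 to 0.0547. The correlations of same-numbered samples' deviations from the group means were -0.0129, 0.0734 and 0.0417. Those of differently numbered samples were -0.0828 to 0.0427. Pairing by number was thus not seen, but values so few and so near 0 cannot exclude a shared animal or day. Over the 15 alternatives, 3 of the 69 members were ever past the threshold (HSPB6, DNAJC5 and DNAJC15), and 21 changed sign at least once, none of them called in any setting. The median over the members was 0.02 on the log2(FPKM + 1) scale, against -0.07 with edgeR. Genes with few counts, such as HSPB1, HSPB2 and DNAJB13, were limited by depth and by single samples.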

Other observations

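The balance between single HSP70 or HSP110 genes and HSP90 genes within a sample needs no scaling between samples. It was looked at after the values had been seen. HSPA5 divided by HSP90AA1 was 0.153, 0.154 and 0.163 in normal retina and 0.213, 0.238 and 0.195 in PVR retina, in FPKM. HSPH1 divided by HSP90AB1 was 0.130, 0.0999 and 0.146 in normal and 0.182, 0.188 and 0.181 in PVR. HSPA8 divided by HSP90AA1 was 0.444, 0.428 and 0.675 in normal and 0.780, 0.744 and 0.815 in PVR. For these 3 ratios, the lowest PVR value was above the highest normal value, including normal replicate 3, in which the single genes were high. Of the 9 ratios of HSPA8, HSPH1 and HSPA5 to the 3 HSP90 genes, 7 were apart in this way, and those of HSPA8 to HSP90AB1 and HSP90B1 overlapped. Of all 33 ratios of the 11 tested HSP70 and HSP110 genes to the 3 HSP90 genes, these 7 were higher in PVR without overlap and none was lower. All ratios of the HSP70 and HSP110 genes other than HSPA8, HSPH1 and HSPA5 overlapped, so the class as a whole did not shift. The ratios share genes and samples and are not independent, and no test was made of them. How often ratios of other genes were apart was not computed. Among all single genes tested, 26.7% had FPKM groups without overlap.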
